A study of Mus musculus with 27 samples.

Results

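The genes described here are the enzymes and hexose transporters of glycolysis and gluconeogenesis, 34 members chosen by symbol, from the transporters that bring glucose and fructose into the cell to the enzymes that make or use pyruvate. All 34 were found among the 46078 gene rows of the count tables, 33 of them among the 16496 genes with enough counts to be tested. The remaining member, G6pc, the catalytic subunit of the glucose-6-phosphatase that releases free glucose, had 0 to 7 counts per mouse and was not tested.

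Epithelium scraped from the colon was sequenced as bulk RNA in 27 C57BL/6 mice, all male, with 3 in each of 9 groups. The mice were 28 days old at the start and 56 days old at the end, and received sesame oil vehicle or the dioxin TCDD at 30, 10, 3, 1, 0.3, 0.1, 0.03 or 0.01 μg/kg by oral gavage every 4 days for 28 days, 7 gavages in all. TCDD is a persistent ligand of the aryl hydrocarbon receptor (AhR), a transcription factor that binds DNA at dioxin response elements. The labels give no transgene, and a scraping is a bulk sample in which fewer cells of a type and less RNA per cell cannot be told apart.

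In glycolysis, glucose is phosphorylated by hexokinase, committed by phosphofructokinase, split by aldolase into triose phosphates and oxidized to pyruvate, which lactate dehydrogenase reduces to lactate or the mitochondrion takes up. Gluconeogenesis runs the other way and bypasses the irreversible steps through pyruvate carboxylase, phosphoenolpyruvate carboxykinase, fructose-1,6-bisphosphatase and glucose-6-phosphatase. In the gut, SGLT1 (Slc5a1) takes up glucose with sodium and GLUT5 (Slc2a5) takes up fructose, mostly in the small intestine, while colonocytes draw much of their energy from butyrate.

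The members past the threshold were hexose transporters, a hexokinase, a PFKFB enzyme and a phosphoenolpyruvate carboxykinase, and no enzyme from aldolase to lactate dehydrogenase passed the threshold at any dose, although Aldoc, Pgk1 and Pkm had a slope over dose. At 30 μg/kg, the transporter genes Slc2a2 and Slc2a5 and the gluconeogenic gene Pck1 were higher than in vehicle, and the hexokinase gene Hk2 was lower. This was 4 of 33 members past an adjusted p of 0.05 (edgeR quasi-likelihood test, Benjamini-Hochberg over all genes tested) with a fold change of at least 1.5, against 6.16% of all genes. The members' median log2 fold change was 0.09 beside -0.002 for all genes tested, and 22 of the 33 were higher than in vehicle. Slc2a2 had 3 counts in the vehicle mice together and entered the test only through the groups where it was high, so its call is a description, and without it 3 of 32 members passed. The p-values measure the spread between these mice.

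At 10 μg/kg, 3 of 33 members passed (Slc2a2 and Slc2a5 higher, Pfkfb3 lower), against 1.78% of all genes, and without Slc2a2 2 of 32. At 3 μg/kg and at 1 μg/kg the only member to pass was Slc2a5, against 0.697% and 0.2% of all genes. From 0.01 to 0.3 μg/kg the edgeR test called none of the 33 members and none of the 16496 genes, and 1, 1, 3 and 1 members had an unadjusted p under 0.05 in ascending order of these doses, beside 1047, 766, 1051 and 856 of all genes. The groups at 30 μg/kg and vehicle did not overlap for 13 members, 9 of them higher and 4 lower, against 29.7% of all genes, and for 12 of 32 without Slc2a2.

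**Figure D1:**
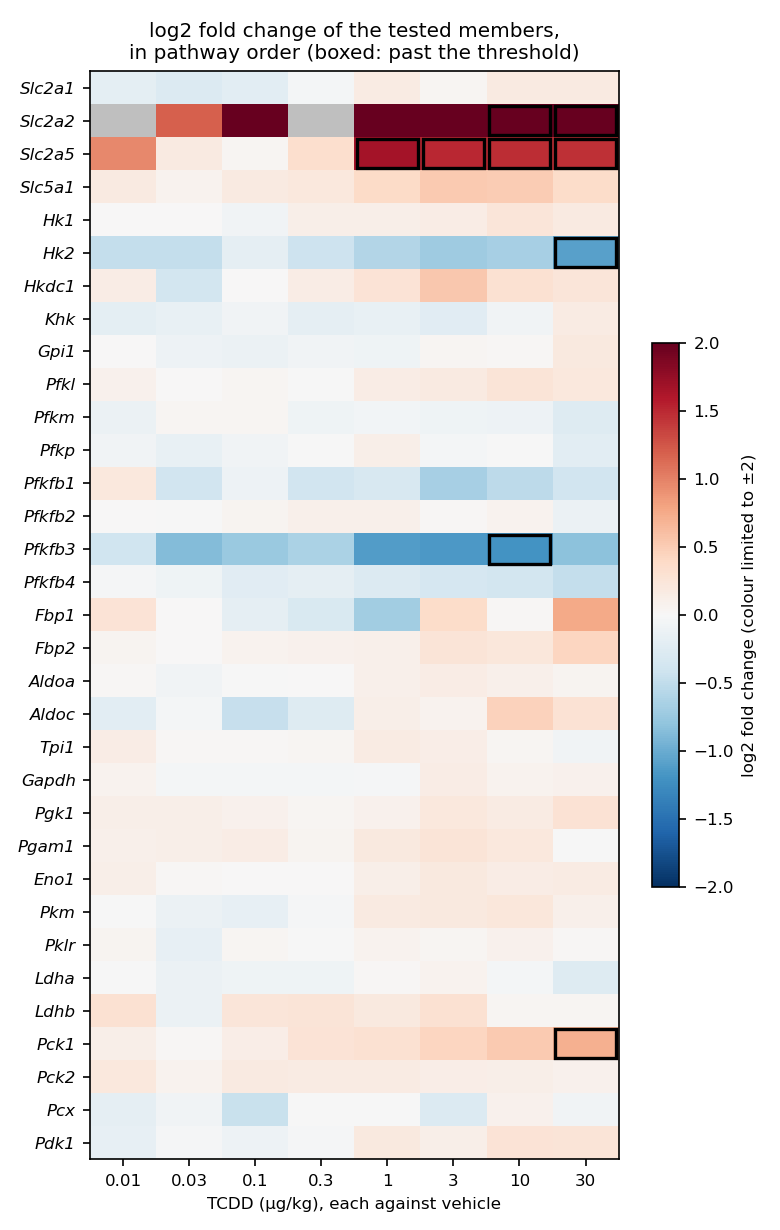
log2 fold change of the 33 tested members at each dose of TCDD (columns, μg/kg) against vehicle, in pathway order, from the fit of all 27 mice with 3 mice a group. Boxes mark the 9 values past the threshold, all in Slc2a2, Slc2a5, Hk2, Pfkfb3 and Pck1. Grey marks Slc2a2 where both groups held 3 counts or fewer in all.

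Against the rank of the dose, 16 of 33 members had a slope with an adjusted p under 0.05, against 23.4% of all genes, 12 of them upward and 4 downward, and without Slc2a2 15 of 32 had one. The upward members were Slc2a1, Slc2a2, Slc2a5, Slc5a1, Hk1, Pfkl, Fbp2, Aldoc, Pgk1, Pkm, Pck1 and Pdk1. The downward ones were Hk2 and 3 of the 4 genes of the bifunctional PFKFB enzymes, which set the level of fructose-2,6-bisphosphate, the activator of phosphofructokinase. Apart from Slc2a2 with its few counts, the slopes were shallow and ran from -0.11 per dose step for Pfkfb3 to 0.19 for Slc2a5 on the log2 scale.

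Dose and index set moved together in these libraries, although the labels name no batch. The index barcodes in the file names were used a second time for 11 libraries, and this second index set holds the groups at 3, 10 and 30 μg/kg and all but the first of the 1 μg/kg mice. The first set holds the other 16 libraries, so vehicle lies in one set and the high doses in the other. With the index set as a term, which rests on the 1 μg/kg group, none of the members kept a slope, beside 11 of all 16496 genes, and Slc5a1 and Pck2 were the members past the threshold at 30 μg/kg, beside 731 of all genes. The members called there without the term kept similar log2 fold changes with larger errors and did not pass, at 1.499 ± 0.59 for Slc2a5 (SE, adjusted p = 0.142), -1.09 ± 0.47 for Hk2 (adjusted p = 0.186) and 0.72 ± 0.27 for Pck1 (adjusted p = 0.117), and Slc2a2 was lost too. CPM below is a gene's counts scaled to the library's total. A clock score, the mean log2 CPM over 9 clock-controlled genes that were high in the high-dose groups (Dbp, Tef and Hlf among them) minus 5 that were low, was -2.72 to -2.47 in vehicle and 1.53 to 2.19 at 30 μg/kg. With that score as a covariate, no member passed at 1, 3, 10 or 30 μg/kg, beside 1, 7, 23 and 423 of all genes, and no member had a slope, beside 39 of all genes. The score was made from genes that moved with the dose in these mice and does not overlap between vehicle and 30 μg/kg, so lost calls follow in part from how it was made. The study's methods place the harvest in the first hours of the light phase, and the time of each mouse within them is not given in the sources used here. Within the first index set the score ran from -2.82 in a 0.01 μg/kg mouse to 2.00 in the 1 μg/kg mouse. The 1 μg/kg mice of the second set had 0.902 and 1.71. What TCDD and the time of day each did to the score cannot be told apart, and the part of the index set was not tested.

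Within the second index set, 30 μg/kg was compared with 3 μg/kg, and the edgeR test called none of the 33 members, against 0.461% of all genes. Of these, 5 members had an unadjusted p under 0.05, beside 1810 of all genes, and DESeq2 also called none.

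Slc2a5 encodes GLUT5, the fructose transporter, and lies on chromosome 4 of GRCm38 at 150119283 to 150144169. Its level was 1.67, 2.95 and 3.14 CPM in the vehicle mice. The 1 μg/kg mice had 8.40, 5.44 and 10.8 CPM, and at 30 μg/kg 6.04, 6.44 and 8.96 CPM. Every mouse at 1 to 30 μg/kg was above every vehicle mouse, and the 30 μg/kg mice lay within the range of the 1 and 3 μg/kg mice. Against vehicle, the log2 fold change was 1.67 ± 0.35 (SE) at 1 μg/kg (adjusted p = 0.0374), 1.51 ± 0.35 at 3 μg/kg (adjusted p = 0.0323), 1.48 ± 0.35 at 10 μg/kg (adjusted p = 0.0211) and 1.46 ± 0.35 at 30 μg/kg (adjusted p = 0.0101), by edgeR with n = 3 a group. These 4 comparisons share the vehicle mice. Without vehicle mouse 1, the lowest of all, the value at 30 μg/kg was 1.23 with an adjusted p of 0.0606, and the calls at 1, 3 and 10 μg/kg were lost too (adjusted p = 0.252, 0.193 and 0.111). Those 3 calls were also lost without vehicle mouse 2 (0.108, 0.0691 and 0.0537). Without vehicle mouse 3 they were lost at 1 and 3 μg/kg (0.114 and 0.0605). Of the dosed mice, leaving out mouse 1 or 3 at 1 μg/kg (0.121 and 0.188), mouse 1 or 3 at 3 μg/kg (0.142 and 0.0698) or mouse 1 or 2 at 10 μg/kg (0.0777 and 0.0683) ended the call at that dose.

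The 1 μg/kg mouse in the first index set had 8.40 CPM of Slc2a5, above the 1.67 to 6.27 CPM (median 3.14) of the other 15 libraries of that set. The highest of those 15, at 6.27 CPM, was mouse 3 at 0.01 μg/kg. Its clock score of 1.45 lay within the 0.902 to 2.00 of the 1 μg/kg mice and below the 1.53 to 2.19 of those at 3 to 30 μg/kg. The 3 mice at 0.01 μg/kg, at 4.11, 4.70 and 6.27 CPM, all exceeded vehicle, with a log2 fold change of 0.96 that did not pass (adjusted p = 0.781). The sum of 8 small-intestine markers was 462 to 551 CPM in vehicle and 477 to 505 CPM at 0.01 μg/kg. It was 631 to 782, 485 to 752, 578 to 632 and 526 to 973 CPM at 1, 3, 10 and 30 μg/kg. The part of the sampled segment in the Slc2a5 values was not tested.

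Slc2a2 encodes GLUT2, the facilitative transporter of the basolateral membrane of absorptive enterocytes and of hepatocytes (chromosome 3, 28697903 to 28731359). It was scarce, with 1, 2 and 0 counts in the vehicle mice, 29, 5 and 37 counts at 10 μg/kg and 11, 50 and 19 counts at 30 μg/kg. The gene passed the filter on low counts only through the groups where it was high. Pooled over the mice, the ratio to vehicle was 19.2 at 10 μg/kg (95% exact interval 6.30 to 95.2) and 21.2 at 30 μg/kg (7.01 to 105), where the interval covers counting error only. The fitted log2 fold change at 10 μg/kg was 4.10 and ran from 3.55 to 4.996 with 1 mouse left out at a time, and that for the 30 μg/kg group was 4.30 and ran from 3.44 to 5.197. The lowest value at 30 μg/kg was without mouse 2 of that dose, the highest without vehicle mouse 2. At 10 μg/kg the call was lost in 5 of the 6 such fits, without vehicle mouse 1, 2 or 3 and without mouse 1 or 3 of that dose, and limma voom called it in neither group. At 0.1 μg/kg the counts were 8, 18 and 2, and at 0.3 μg/kg 1, 0 and 0, so the level did not follow the dose step by step.

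Lct and Apoa4, 2 of the 8 small-intestine markers listed, were chosen for mention after their values were seen. The mouse with the most Slc2a2, mouse 2 at 30 μg/kg with 4.18 CPM, also had the most lactase (Lct, 18.7 CPM against 0.393 to 1.16 in vehicle) and Apoa4 (34.9 CPM against 3.44 to 4.81 in vehicle). The next, mice 3 and 1 at 10 μg/kg with 2.76 and 2.47 CPM, had 8.65 and 8.62 CPM of Lct, while mouse 2 of that group had 0.428 CPM of Slc2a2 and 2.83 CPM of Lct. Of the 8 markers, 6 were higher at 30 μg/kg and 4 passed the test (Lct, Alpi, Fabp2 and Rbp2), and their summed level was 462 to 551 CPM in vehicle and 526 to 973 CPM at 30 μg/kg. The sum did not follow Slc2a2 within the 10 μg/kg group, where it was 578, 632 and 610 CPM in mice 1, 2 and 3, and mouse 3 at 1 μg/kg had a sum of 782 CPM with 0.695 CPM of Slc2a2. Of the 6 hepatocyte markers, Fgb and Serpina1c were at 0 in all mice, Alb was 0.105 to 1.08 CPM in vehicle and 0.418 to 1.22 CPM at 30 μg/kg, and their sum was 5.69 to 8.26 CPM and 20.8 to 62.2 CPM, with Cyp2e1 the one marker past the test. The part of other cell types or of the sampled segment in the Slc2a2 values was not tested.

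Slc5a1, the gene of the sodium-glucose cotransporter SGLT1 (chromosome 5, 33104219 to 33162870), changed less. It was 148, 154 and 172 CPM in vehicle, 224, 236 and 223 CPM at 3 μg/kg, 244, 203 and 225 CPM at 10 μg/kg and 199, 225 and 191 CPM at 30 μg/kg. Each of these 9 mice was above each vehicle mouse, but so was each mouse at 0.01, 0.3 and 1 μg/kg. Per kilobase of exon, the lowest mice of those 3 doses were at 42.04, 42.58 and 43.64 CPM, beside a vehicle maximum of 41.98 CPM. At 3, 10 and 30 μg/kg, the log2 fold changes were 0.53 ± 0.10, 0.50 ± 0.10 and 0.37 ± 0.10 (SE). They had adjusted p values of 0.00631, 0.00592 and 0.0178 and were below the fold change of 1.5. With the index set as a term, Slc5a1 was past the threshold at 10 μg/kg (0.81, adjusted p = 0.0301) and 30 μg/kg (0.67, adjusted p = 0.0231). That term rests on the first 1 μg/kg mouse against the others of its dose, where Slc5a1 ran from 43.6 to 57.7 CPM per kb of exon. Slc2a1, the gene of the ubiquitous GLUT1, had a log2 fold change of 0.18 at 30 μg/kg (adjusted p = 0.435).

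**Figure D2:**
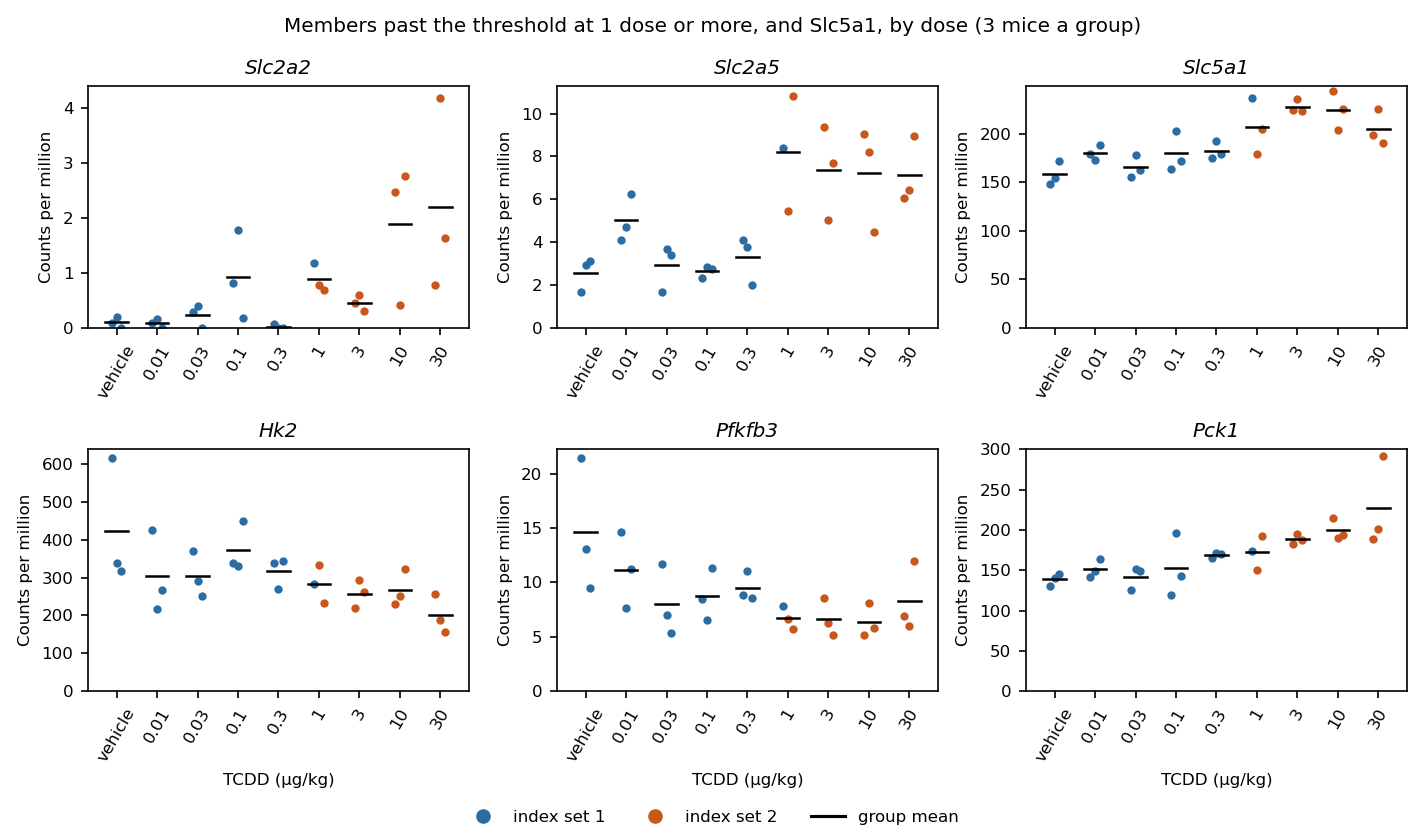
CPM of the 5 members past the threshold at 1 dose or more, and of Slc5a1, in each of the 27 mice by dose of TCDD (μg/kg). Points are mice, coloured by index set, and black bars are the means of 3 mice. Slc2a5 stood at 4.47 to 10.8 CPM from 1 μg/kg upward and at 1.67 to 6.27 CPM below.

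Per kilobase of exon, Slc2a1 and Slc5a1 carried the hexose transport genes of the colon, with 58.8 and 46.8 CPM per kb over the 27 mice. Slc2a5 stood at 1.52 CPM per kb and Slc2a2 at 0.132 CPM per kb. Slc2a5 made up 0.469 to 0.953% of the 4 transporters' length-scaled counts in vehicle and 1.35 to 2.51% at 30 μg/kg. The ranges did not overlap, and the exact two-sided permutation test gave p = 0.1, the smallest that 3 against 3 allows.

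Hk2 encodes the insulin-responsive, growth-associated hexokinase bound to mitochondria (chromosome 6, 82725025 to 82774454). Its level was 617, 338 and 316 CPM in vehicle and 256, 188 and 156 CPM at 30 μg/kg. All 3 mice at 30 μg/kg were below all 3 vehicle mice, and the log2 fold change was -1.08 ± 0.25 (SE, n = 3, edgeR adjusted p = 0.00861). Vehicle mouse 1 was far above the others, and without it the value was -0.70 with an adjusted p of 0.0908. Without mouse 3 at 30 μg/kg the value was -0.93 with an adjusted p of 0.0543, and with the other groups left out of the fit the adjusted p was 0.0503.

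Hk1, the housekeeping hexokinase, was 248.6, 196 and 200.2 CPM in vehicle and 252, 254 and 226 CPM at 30 μg/kg (log2 fold change 0.18, adjusted p = 0.33), and Hkdc1, a related hexokinase domain protein, ranged from 44.7 to 185 CPM over all mice (0.25 at 30 μg/kg, adjusted p = 0.644). Per length, Hk2 held 70.2, 55.6 and 53.0% of the hexokinase counts in the vehicle mice and 46.8, 36.1 and 33.1% at 30 μg/kg. Hk1 held 19.8, 22.6 and 23.5% and then 32.3, 34.1 and 33.5%. Neither pair of ranges overlapped (exact p = 0.1 for each, the smallest possible). The shares of a family sum to the whole, so here and in the families below a fall of one share raises the others and the tests are not independent. The shares of Hkdc1 overlapped, at 9.96, 21.8 and 23.5% and then 20.9, 29.9 and 33.3% (exact p = 0.3).

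**Figure D3:**
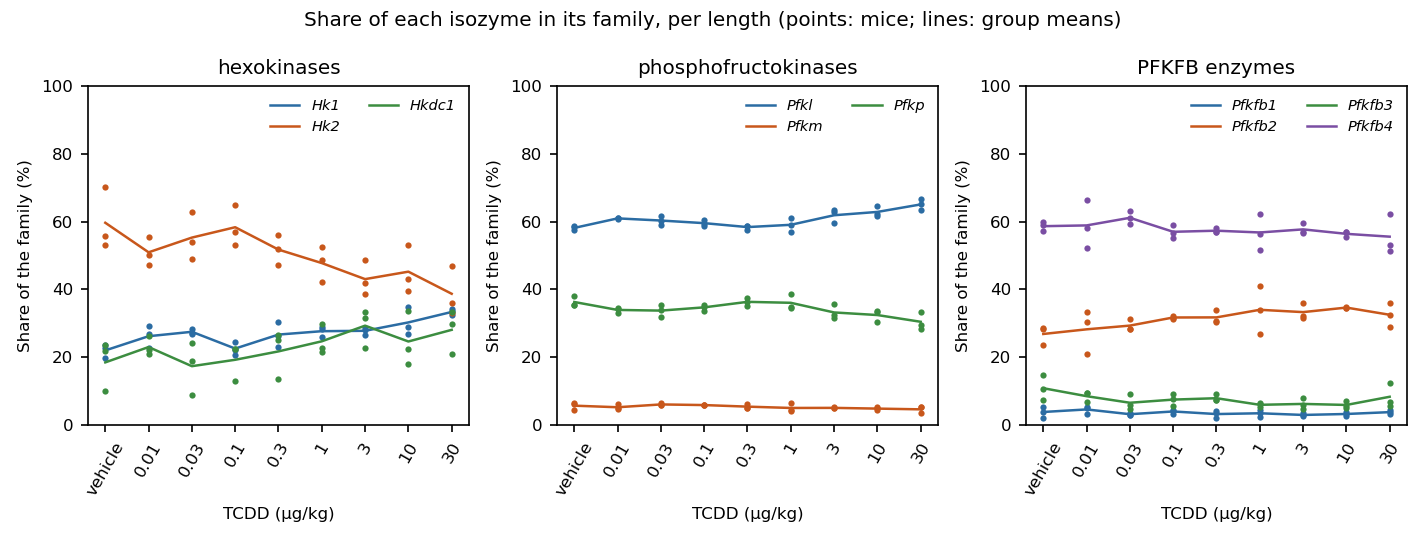
Share of each isozyme in the length-scaled counts of its family (%) by dose of TCDD (μg/kg), for the hexokinases, the phosphofructokinases and the PFKFB enzymes. Points are the 27 mice and lines join the means of 3. The mean share of Hk2 was 59.6% in vehicle and 38.7% at 30 μg/kg.

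At the committed step, Pfkl, the liver-type phosphofructokinase and per length the most abundant of its family with 60.7% of its counts over the 27 mice, was 173, 169 and 161 CPM in vehicle and 204, 184 and 192 CPM at 30 μg/kg. The log2 fold change of 0.21 ± 0.06 (SE) had an adjusted p of 0.0401 and was below the fold change of 1.5. Pfkp, the platelet type, had a log2 fold change of -0.21 (adjusted p = 0.151) and Pfkm, the muscle type, -0.26 (adjusted p = 0.343). The share of Pfkl was higher in all 3 dosed mice, at 57.5 to 58.6% in vehicle and 63.3 to 66.5% at 30 μg/kg, and that of Pfkp was lower, at 35.3 to 38.1% and 28.3 to 33.3% (exact p = 0.1 for each). Without division by exon length the order turned, with 46.1% from Pfkl and 51.9% from Pfkp over the 27 mice.

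Among the PFKFB enzymes, Pfkfb3, the inducible and kinase-dominant form (chromosome 2, 11471433 to 11554077), was 21.4, 13.1 and 9.52 CPM in vehicle and 5.21, 8.13 and 5.82 CPM at 10 μg/kg. These ranges did not overlap, with a log2 fold change of -1.20 ± 0.33 (SE, adjusted p = 0.0432). At 30 μg/kg it was 6.90, 6.02 and 12.0 CPM, which overlapped vehicle (log2 fold change -0.83, adjusted p = 0.0946). Without vehicle mouse 1, which was also the highest for Hk2, the value at 10 μg/kg was -0.81 with an adjusted p of 0.258. Leaving out vehicle mouse 2 or any one of the 3 mice at 10 μg/kg also lifted the adjusted p to between 0.0525 and 0.146.

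Pfkfb4 was the most abundant of the 4 PFKFB genes per length (9.0 CPM per kb) and went from 56.7, 45.7 and 49.8 CPM in vehicle to 35.1, 42.5 and 32.0 CPM at 30 μg/kg. Its log2 fold change was -0.47 ± 0.14 (SE, adjusted p = 0.0305), below the fold change of 1.5. Pfkfb1, the liver and muscle form, had a downward slope but few counts, at 1.26 to 3.73 CPM over all mice. Pfkfb2, the heart form, had a log2 fold change of -0.11 at 30 μg/kg (adjusted p = 0.536), and its share of the family was 23.6 to 28.5% in vehicle and 28.9 to 36.1% at 30 μg/kg.

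Some of the central enzymes were the most abundant members. Per length, Aldoa (176 CPM per kb), Ldha (171) and Pkm (109) led all members, followed by Gpi1 (72.8), Fbp2 (64.9), Gapdh (61.2), Slc2a1 (58.8) and Tpi1 (57.8). Hk2 (50.8) and Pck1 (49.9) lay above the other central enzymes Pgam1 (45.1), Eno1 (31.7), Pgk1 (26.1) and Pklr (24.97). Reads with more than 1 alignment are not in the gene counts, and genes with near-identical pseudogene copies such as Gapdh can be undercounted, so their place in this order is uncertain. At 30 μg/kg the log2 fold changes were 0.06 for Aldoa, -0.07 for Tpi1, 0.08 for Gapdh, -0.002 for Pgam1, 0.16 for Eno1, 0.09 for Pkm and 0.02 for Pklr. Their standard errors were 0.08 to 0.11, and no adjusted p was below 0.311. Pgk1, the phosphoglycerate kinase, had a larger value of 0.30 ± 0.11 (SE, adjusted p = 0.0885) with no overlap, at 49.5 to 57.95 CPM in vehicle and 59.5 to 75.4 CPM at 30 μg/kg. Aldoc, the brain-type aldolase, had 0.29 ± 0.19 (adjusted p = 0.354) and Gpi1, the glucose-6-phosphate isomerase, 0.19 ± 0.09 (adjusted p = 0.206). Ldha was 615, 552 and 591 CPM in vehicle and 525, 490.2 and 461 CPM at 30 μg/kg, ranges that did not overlap, with a log2 fold change of -0.25 ± 0.09 (SE, adjusted p = 0.0828).

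The isozymes of the last steps kept their order. Per length, Pkm held 76.8 to 83.9% of the pyruvate kinases over the 27 mice, with the rest from Pklr, and Ldha held 97.9 to 99.2% of the lactate dehydrogenases. Khk, the ketohexokinase that phosphorylates the fructose that GLUT5 carries, was at 5.83 to 9.87 CPM over all mice and had a log2 fold change of 0.16 at 30 μg/kg (adjusted p = 0.60).

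**Figure D4:**
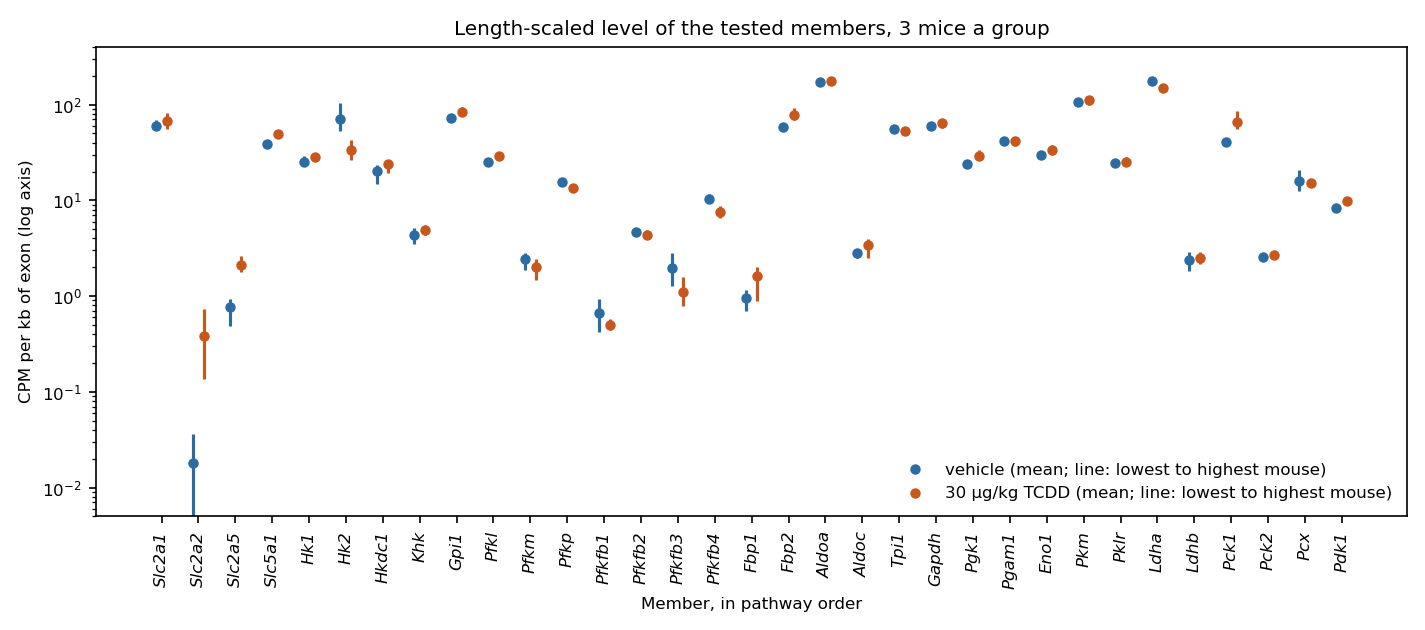
Length-scaled level (CPM per kb of exon, log axis) of the 33 tested members in pathway order, in vehicle and at 30 μg/kg TCDD. Points are means of 3 mice and lines run from the lowest to the highest mouse. The range of Slc2a2 in vehicle begins at 0 and is drawn from the foot of the axis.

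Among the gluconeogenic genes, Pck1 encodes the cytosolic phosphoenolpyruvate carboxykinase (chromosome 2, 173153048 to 173159273). It was 131, 141 and 146 CPM in vehicle, 183, 194 and 187 CPM at 3 μg/kg, 215, 190.2 and 193 CPM at 10 μg/kg and 189, 201 and 292 CPM at 30 μg/kg. All 12 mice from 1 to 30 μg/kg were above all 3 vehicle mice, and so were those at 0.3 μg/kg. Per length, the 0.3 μg/kg mice had 48.1 to 49.8 CPM per kb and vehicle 38.2 to 42.5. The mice at 0.1 μg/kg ran from 34.8 to 57.2 CPM per kb and those at 1 μg/kg from 43.9 to 56.2. The log2 fold change was 0.71 ± 0.15 at 30 μg/kg (SE, adjusted p = 0.00359) and 0.52 ± 0.15 at 10 μg/kg (adjusted p = 0.0515).

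Mouse 3 at 30 μg/kg, the one with 292 CPM of Pck1, also had the highest sums of 7 adipocyte markers (258 CPM against 7.77 to 31.3 in vehicle) and of 8 smooth muscle markers (701 CPM against 53.1 to 96.6 in vehicle). Adipocytes make Pck1 for glycerol synthesis. The other mice at 30 μg/kg had adipocyte sums of 31.1 and 71.1 CPM. The mice at 0.01 μg/kg had higher sums than these, at 154, 73.3 and 83.9 CPM, with 141, 149 and 163 CPM of Pck1. All 7 adipocyte markers were higher at 30 μg/kg and 4 passed the test, and all 8 smooth muscle markers were higher with none past the test. The part of these cells in the Pck1 values was not tested. Without mouse 3, the log2 fold change of Pck1 was 0.49 with an adjusted p of 0.0329, below the fold change of 1.5.

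Pck2, the mitochondrial form, was 19.2, 19.4 and 21.1 CPM in vehicle and 21.1, 21.2 and 21.2 CPM at 30 μg/kg (log2 fold change 0.09, adjusted p = 0.708). With the index set as a term it was past the threshold at 30 μg/kg (0.67, adjusted p = 0.0397). That term rests on the first 1 μg/kg mouse against the others of its dose. Pck2 ran from 2.36 to 3.65 CPM per kb in those mice, against 2.46 to 2.70 in vehicle and 2.70 to 2.72 at 30 μg/kg. Pck1 held 91.6 to 96.9% of the family per length over the 27 mice.

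Fbp2, the fructose-1,6-bisphosphatase first known from muscle, was the colonic form, with 97.4 to 99.4% of the family per length. It was 79.9, 92.4 and 86.6 CPM in vehicle and 101, 134 and 113 CPM at 30 μg/kg, with no overlap and a log2 fold change of 0.42 ± 0.10 (SE, adjusted p = 0.0117), below the fold change of 1.5. The sum of 6 skeletal muscle markers was 3.05 to 5.2 CPM in vehicle and 117 to 163 CPM at 30 μg/kg, nearly all of it from Acta1, the skeletal actin (2.56 to 4.52 and 116 to 162 CPM). Of the other 5, none had enough counts to be tested, Ckm had 4, 1 and 26 counts at 30 μg/kg and Myh4 was at 0 in all mice. The part of muscle in the Fbp2 values was not tested. Fbp1, the liver form, was at 0.555 to 3.45 CPM over all mice. Pcx, the pyruvate carboxylase that makes oxaloacetate, had a log2 fold change of -0.07 (adjusted p = 0.908) and varied widely, from 32.98 to 105 CPM. G6pc had no count in the vehicle mice and 0, 4 and 7 counts at 30 μg/kg. Pdk1, a kinase that inactivates pyruvate dehydrogenase, was 61.4 to 67.4 CPM in vehicle and 72.8 to 82.0 CPM at 30 μg/kg (log2 fold change 0.26, adjusted p = 0.0576).

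The promoter stretches of the 5 members past the threshold at 1 dose or more are shown with that of Slc5a1, which passed on adjusted p alone. They are the bases just before the RefSeq start (GRCm38.p6, gene strand, 5′ to 3′), for Slc2a5 before the GENCODE start that lies upstream of it and for Pfkfb3 before the second of its 2 starts, the one that carries motifs. Capitals mark the core of the dioxin response element (GCGTG) and the E-box of the clock and of carbohydrate-responsive factors (CACGTG), searched on both strands. The stretches lie at chr3:28697783-28697902 (+), chr4:150119163-150119282 (+), chr5:33104039-33104218 (+), chr6:82774455-82774574 (-), chr2:11502091-11502250 (-) and chr2:173152953-173153072 (+).
Slc2a2: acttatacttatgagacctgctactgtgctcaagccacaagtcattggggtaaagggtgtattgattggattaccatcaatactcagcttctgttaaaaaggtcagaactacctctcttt
Slc2a5: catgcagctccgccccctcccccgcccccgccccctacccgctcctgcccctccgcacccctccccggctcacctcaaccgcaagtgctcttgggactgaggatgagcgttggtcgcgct
Slc5a1: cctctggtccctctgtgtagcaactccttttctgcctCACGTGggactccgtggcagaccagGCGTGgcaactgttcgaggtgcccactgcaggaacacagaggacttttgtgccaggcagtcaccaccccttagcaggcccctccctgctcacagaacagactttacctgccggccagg
Hk2: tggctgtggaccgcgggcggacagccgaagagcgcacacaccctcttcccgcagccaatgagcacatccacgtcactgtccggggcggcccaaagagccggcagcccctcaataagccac
Pfkfb3: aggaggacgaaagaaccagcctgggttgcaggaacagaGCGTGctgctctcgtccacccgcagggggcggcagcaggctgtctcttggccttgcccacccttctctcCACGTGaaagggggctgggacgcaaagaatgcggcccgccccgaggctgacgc
Pck1: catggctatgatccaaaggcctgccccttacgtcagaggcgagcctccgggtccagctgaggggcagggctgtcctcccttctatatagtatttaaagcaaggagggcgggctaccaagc

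Slc5a1 held both motifs, an E-box beginning at -143 and a GCGTG core at -118 from the start, and so did Pfkfb3, with a core at -122 and the E-box at -53. The 300-base window of that Pfkfb3 start held 2 cores, and the window of its other start held neither motif. Neither motif was found in the 300-base windows of Slc2a2, Slc2a5, Hk2 and Pck1, which says only that these letters are not in these windows. Over the full promoter windows of 300 bases, GCGTG was in 25 of the members' 54 promoters (46.3%) and in 32.4% of all 32851 promoters, and CACGTG in 8 of 54 (14.8%) and in 7.15% of all. Starts of the same gene were counted apart and some of their windows overlap, as for Eno1. By gene, 19 members held the core and 8 the E-box in a window. A match is a description of the sequence and not evidence of binding.

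The clock score and the members' levels are plotted together by mouse. In the first index set, mouse 3 at 0.01 μg/kg was the one mouse below 1 μg/kg with a clock score above 0. Its levels were 188 CPM for Slc5a1, 163 CPM for Pck1, 267 CPM for Hk2, 11.2 CPM for Pfkfb3, 6.27 CPM for Slc2a5 and 0 for Slc2a2. Among the 15 libraries of that set from vehicle to 0.3 μg/kg, Slc5a1 ran from 148 to 203 CPM and Pck1 from 119 to 196 CPM, so that mouse lay within the range of the others for both. It was also within the range for Hk2 (216 to 617 CPM) and for Pfkfb3 (5.33 to 21.4 CPM, median 9.52), at the foot of the range for Slc2a2 and the highest of the 15 for Slc2a5.

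**Figure D5:**
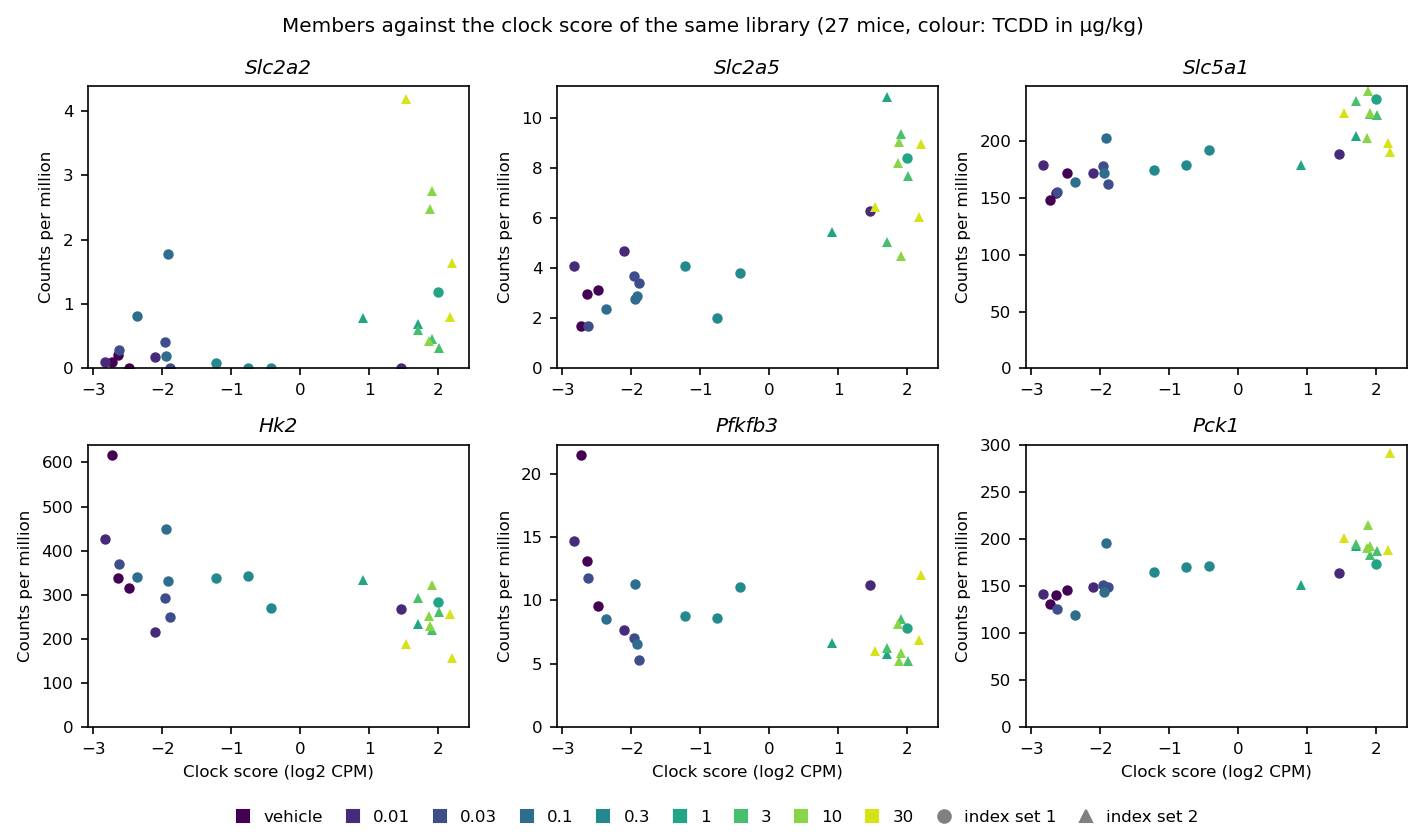
CPM of 6 members against the clock score of the same library (difference of mean log2 CPM) in 27 mice. Colour gives the dose of TCDD in μg/kg, and circles and triangles the first and second index set. The libraries fall into separate clouds, below 0 up to 0.3 μg/kg and above 0 from 1 μg/kg, with mouse 3 at 0.01 μg/kg (score 1.45) in the upper cloud.

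Of 113 other genes of hexose transport, glycolysis, gluconeogenesis, pyruvate handling, side branches and their regulators, 101 were tested. At 30 μg/kg, 8 passed, 5 higher and 3 lower, beside 6.16% of all genes, and at 10 μg/kg 3 passed, beside 1.78%. The list's median log2 fold change at 30 μg/kg was 0.14, beside -0.002 for all genes. The largest change was in Slc2a6, which encodes the lysosomal transporter GLUT6. It was 1.97, 3.48 and 1.96 CPM in vehicle, 7.68, 15.6 and 5.89 CPM at 10 μg/kg and 9.06, 20.2 and 14.1 CPM at 30 μg/kg, a log2 fold change of 2.54 ± 0.42 (SE, adjusted p = 0.000586). Slc37a4, the glucose-6-phosphate carrier of the endoplasmic reticulum, was 22.7, 20.2 and 16.7 CPM in vehicle and 30.7, 30.3 and 33.5 CPM at 30 μg/kg (0.66 ± 0.12, adjusted p = 0.0013).

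Tiparp, an AhR target whose product ADP-ribosylates proteins, was 32.96, 24.98 and 24.0 CPM in vehicle and 62.3, 57.2 and 48.7 CPM at 30 μg/kg (log2 fold change 1.04, adjusted p = 0.000184). Irs2, an adaptor of the insulin receptor, rose at 10 and 30 μg/kg (0.89 and 0.84), and Klf15, a transcription factor of gluconeogenic genes, rose at 30 μg/kg (1.597, adjusted p = 0.00527). Arrdc4, an arrestin-like target of the glucose sensor ChREBP, fell at 3, 10 and 30 μg/kg (-1.07, -0.92 and -0.71). Slc16a3, the lactate exporter MCT4, and Slc5a9, a sodium-dependent mannose and glucose transporter, fell at 30 μg/kg (-1.07 and -0.89).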

How the data were processed

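Each mouse had 1 table of counts, whole numbers of reads per gene that the authors deposited without normalization. Per the labels, libraries were made with a NuGen Ovation kit for mouse RNA, and the submitters' processing notes name FastQC 0.11.3, Trimmomatic 0.33, TopHat2 2.1.0, SAMtools 1.2.0, HTSeq 0.6.1 and DESeq with GRCm38. The annotation release and the use of strand are not given in the sources used here, so reads of overlapping genes on opposite strands cannot be told apart. None of Slc2a2, Slc2a5, Slc5a1, Hk2, Pfkfb3 and Pck1 overlaps another gene's exons in GENCODE M21, while 13 of 34 members do. Gene counts were 9.31 to 14.4 M per mouse (median 11.7 M), reads with more than 1 alignment were 30.7 to 37.1% of the reads and reads outside genes 29.1 to 33.3%, and these rows were left out.

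Genes were kept by filterByExpr (minimum count 10), scaled with TMM factors and tested with edgeR 4.0.16 (glmQLFit, glmQLFTest) in R 4.3.3 in 1 fit of all 27 mice, with contrasts to vehicle, and in a second fit for the slope over dose rank. Standard errors are the log2 fold change divided by the square root of F. CPM used the TMM-scaled totals, and CPM per kb the union of GENCODE M21 exons. DESeq2 1.42.0, limma 3.58.1, other scalings and covariates served as alternatives. The contrast and slope steps were also run on simulated counts with built-in changes but no index set, clock or Hox structure, and the outcome is not given here. Groups come from the dose labels, mice are numbered in accession order, and the closest pair within a group differed by more than sampling noise (chi-square per degree of freedom 5.84). The Hox score is the first principal component of 25 Hox genes. The members, lists and markers were chosen with earlier results of these data known. Described in full are the members past the threshold at 30, 10, 3 or 1 μg/kg or from 3 to 30 μg/kg, those with a slope and a fold change of at least 1.5 at any dose, and the isozyme with the highest length-scaled level at each step. Other pathway genes are named where past the threshold at 30 or 10 μg/kg.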

Additional observations from a re-analysis of the deposited data

How the results depend on the processing

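RLE size factors, no filter on low counts and the Hox score as a covariate kept all 4 members past the threshold at 30 μg/kg. Adjusted p alone gave 8, 5 and 2 members at 30, 10 and 3 μg/kg and 1818 and 532 genes at 30 and 10 μg/kg. No filter and DESeq2 each gave 2 members at 3 μg/kg (Pfkfb3 and Slc2a5). With the index set as a term, 2, 1, 0 and 0 members passed at 30, 10, 3 and 1 μg/kg, with 731 and 58 genes at 30 and 10 μg/kg, and 0 members and 11 genes had a slope. With the clock score, 0 members passed at each of these doses and for the slope, with 423 and 23 genes at 30 and 10 μg/kg and 39 for the slope, and the slope of Slc2a5 turned to -0.062 (adjusted p = 0.618). With only the 2 groups compared in the fit, 2 members and 662 genes passed at 30 μg/kg and 0 members at 10 and 1 μg/kg. limma voom called 3 members and 841 genes at 30 μg/kg, without Slc2a2, and 0 members at 10, 3 and 1 μg/kg. The cause of these moves was not tested.

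Leaving out 1 mouse at a time gave 2 to 5 members and 590 to 1084 genes at 30 μg/kg, 0 to 2 members and 163 to 228 genes at 10 μg/kg, 0 to 1 members at 3 and at 1 μg/kg, and 13 to 19 slopes. The 2 members at 30 μg/kg were left without vehicle mouse 1 (Pck1 and Slc2a2). Low counts limit Slc2a2, with 3 counts in the vehicle mice together. No paired analysis was possible because the replicate numbers follow accession order and pair no mice.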

Other observations

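Within groups, some members moved with a score of Hox genes, which mark position along the colon. The Hox score is high where distal Hox genes such as Hoxd13 are high, and deviations from the group means were compared over 27 mice with 100000 permutations within groups, for all 16496 genes tested and with p-values adjusted over all of them. By both Pearson's r and Spearman's rho, 6 of 33 members passed, beside 1442 of 16496 genes (8.74%). Pcx, the anaplerotic pyruvate carboxylase, was higher where the score was higher (r = 0.88, rho = 0.91, permutation adjusted p = 0.00141 and 0.0011), as were Hk1 (r = 0.71, rho = 0.77, adjusted p = 0.00201 and 0.00245), Hk2 (r = 0.58, rho = 0.63, adjusted p = 0.0372 and 0.0233) and Pkm (r = 0.55, rho = 0.62, adjusted p = 0.0276 and 0.0251). Hkdc1 was lower (r = -0.87, rho = -0.80, adjusted p = 0.00556 and 0.0125), and so was Fbp2 (r = -0.71, rho = -0.69, adjusted p = 0.0223 and 0.0284).

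With the 2 mice of most extreme score left out, r was 0.85 for Pcx, -0.84 for Hkdc1, -0.68 for Fbp2, 0.66 for Hk1, 0.56 for Hk2 and 0.50 for Pkm. In the first index set (16 mice) and in the second (11 mice), r was 0.89 and 0.90 for Pcx, -0.84 and -0.92 for Hkdc1, -0.78 and -0.70 for Fbp2, 0.78 and 0.58 for Hk1, 0.67 and 0.39 for Hk2, and 0.68 and 0.28 for Pkm. Of the other members past the threshold at 1 dose or more, Slc2a5 had r of -0.48 and rho of -0.43 (adjusted p = 0.229 and 0.276), with r of -0.59 in the first index set and -0.34 in the second. Pfkfb3, Slc2a2 and Pck1 had r of 0.30, 0.13 and -0.12, with adjusted p values of 0.496, 0.865 and 0.881. By index set, r was 0.67 and -0.49 for Pfkfb3, -0.13 and 0.50 for Slc2a2 and -0.13 and -0.10 for Pck1, so the sign turned between the sets for Pfkfb3 and Slc2a2.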
